A study of Mus musculus with 12 samples.

Results

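9 genes of nutrient sensing and metabolism on the proximal part of mouse chromosome 17 are described here, Glp1r, Glo1, Decr2, Ppard, Agpat1, Itpr3, Clps, Cbs and Abcg1. They were chosen by name, and every probe that the platform annotation assigns to them under a current name or a synonym was taken. Of the 9 genes 8 had 1 probe each, among 13840 genes that could be named on the array and 656 of these on chromosome 17. Itpr3, an inositol trisphosphate receptor that releases calcium from the endoplasmic reticulum, had no probe listed in the annotation and was not analysed here. Ordered by start position in the gene table used, the 8 genes ran from place 168 (Decr2) to place 301 (Agpat1) of the 656. That order sets H2-Q8 at place 1, far from H2-Q2, H2-Q7 and H2-Q10 at places 342 to 344, so the places are approximate.

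The animals were male homozygous B6.CAST-17 congenics, whose B6 genome holds a stretch of CAST chromosome 17, and male wild type B6 mice. Skeletal muscle and hypothalamus of both strains were profiled on 12 arrays, in 4 groups of 3: congenic muscle, wild type muscle, congenic hypothalamus and wild type hypothalamus. The labels call the congenic mice short congenics for the hypothalamus samples and not for the muscle samples, and neither the ends of the CAST segment nor the ages of the mice are stated. The sample descriptions name the congenic strain for the wild type arrays too, and the groups here follow the titles. A congenic segment carries many genes at once, so a strain difference in 1 gene cannot be told apart from the effects of its neighbours. Each measured gene was read by 1 probe, and whether CAST letters under a probe alter its signal was not tested. The series text counts 3 mice of each strain as biological replicates, so both tissues may come from the same mice, and the test between tissues treats the 12 arrays as independent.

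The 8 measured genes act at different steps of nutrient use. Glucose and lipids are sensed through hormone and nuclear receptors, among them the GLP-1 receptor on neurons and pancreatic beta cells and PPAR-delta in muscle, where it is known as a regulator of fatty acid oxidation and endurance. Glyoxalase I clears methylglyoxal, a reactive by-product of glycolysis, and cystathionine beta-synthase passes homocysteine into the synthesis of cysteine. Lipids are built from phosphatidic acid, shortened in peroxisomes, digested in the gut with the help of colipase and exported as cholesterol by ABC transporters.

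The deposited values were log2 signals, with base 2 inferred from their range of 5.35 to 21.1, and folds rest on that base. Differences below are congenic minus wild type on this scale, tested within a tissue by limma over all 33012 probes, with p-values adjusted by Benjamini and Hochberg's method and a threshold of 0.05. Wild type hypothalamus array 1 stood apart. Its Spearman correlation with the other hypothalamus arrays was 0.420 to 0.461, where those 5 arrays gave 0.775 to 0.853 among themselves and the 6 muscle arrays 0.796 to 0.862. The median of 8 neuronal markers was 14.50 to 14.70 in congenic hypothalamus and 11.29 to 14.36 in wild type hypothalamus. Its lowest value was on array 1, and wild type arrays 2 and 3, at 14.36 and 13.72, also lay below all congenic arrays. The mean of these markers overlapped, at 13.36 to 14.07 in congenic hypothalamus and 11.85 to 13.83 in wild type hypothalamus. The part of these markers in the hypothalamus values was not tested. Since wild type array 1 stood apart, each strain difference in hypothalamus is given with and without it. The median of 9 skeletal muscle markers was 19.79 to 19.99 in congenic muscle and 19.98 to 20.12 in wild type muscle.

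Markers of other cell types also varied between arrays, and the strains overlapped for the oligodendrocyte and pituitary markers. The median of 3 measured of 6 listed astrocyte markers was 11.32 to 11.75 in congenic hypothalamus and 10.31 to 11.14 in wild type hypothalamus, which did not overlap, as for Glo1 and Abcg1 there. Their mean overlapped, at 11.68 to 11.84 in congenic hypothalamus and 11.09 to 11.77 in wild type hypothalamus. The median of 6 oligodendrocyte markers was 9.76 to 12.57 in congenic hypothalamus, highest on array 3, and 7.82 to 10.01 in wild type hypothalamus. The median of 7 pituitary markers was 8.33 to 12.35 in congenic hypothalamus, highest on array 1, and 8.33 to 10.37 in wild type hypothalamus. In muscle the median of 8 fibroblast and tendon markers was 14.86 to 15.19 in the congenic mice and 14.36 to 14.78 in the wild type mice, without overlap. The part of these markers in the strain differences below was not tested.

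No member passed the test in any comparison. In muscle 0 of 8 members passed limma's adjusted threshold (background 0.0182% of all probes) and 2 had an unadjusted p under 0.05 (background 5.01%). In hypothalamus 0 of 8 passed (background 0%) and 0 had an unadjusted p under 0.05 (background 1.99%), and with wild type array 1 left out these were 0 (background 0%) and 3 (background 5.33%). Between the tissues 0 of 8 passed (background 0%) and 0 had an unadjusted p under 0.05 (background 3.63%), or 0 (background 0%) and 2 (background 6.74%) with that array left out. By sign alone 5 of 8 members were higher in congenic muscle (background 51.0%) and 3 of 8 in congenic hypothalamus (background 46.3%), or 3 of 8 without that array (background 49.3%). Among the 656 chromosome 17 genes the shares with an unadjusted p under 0.05 were 9.6% in muscle, 3.2% in hypothalamus and 10.2% in hypothalamus without that array. The strains did not overlap for 3 of 8 members in muscle (background 11.9%), 2 of 8 in hypothalamus (background 9.16%) and 5 of 8 in hypothalamus without wild type array 1 (background 22.6%). The median member difference was 0.23 in muscle, where the median of all probes was 0.01, -0.10 in hypothalamus, where it was -0.07, and -0.09 in hypothalamus without that array, where it was -0.01.

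**Figure D1:**
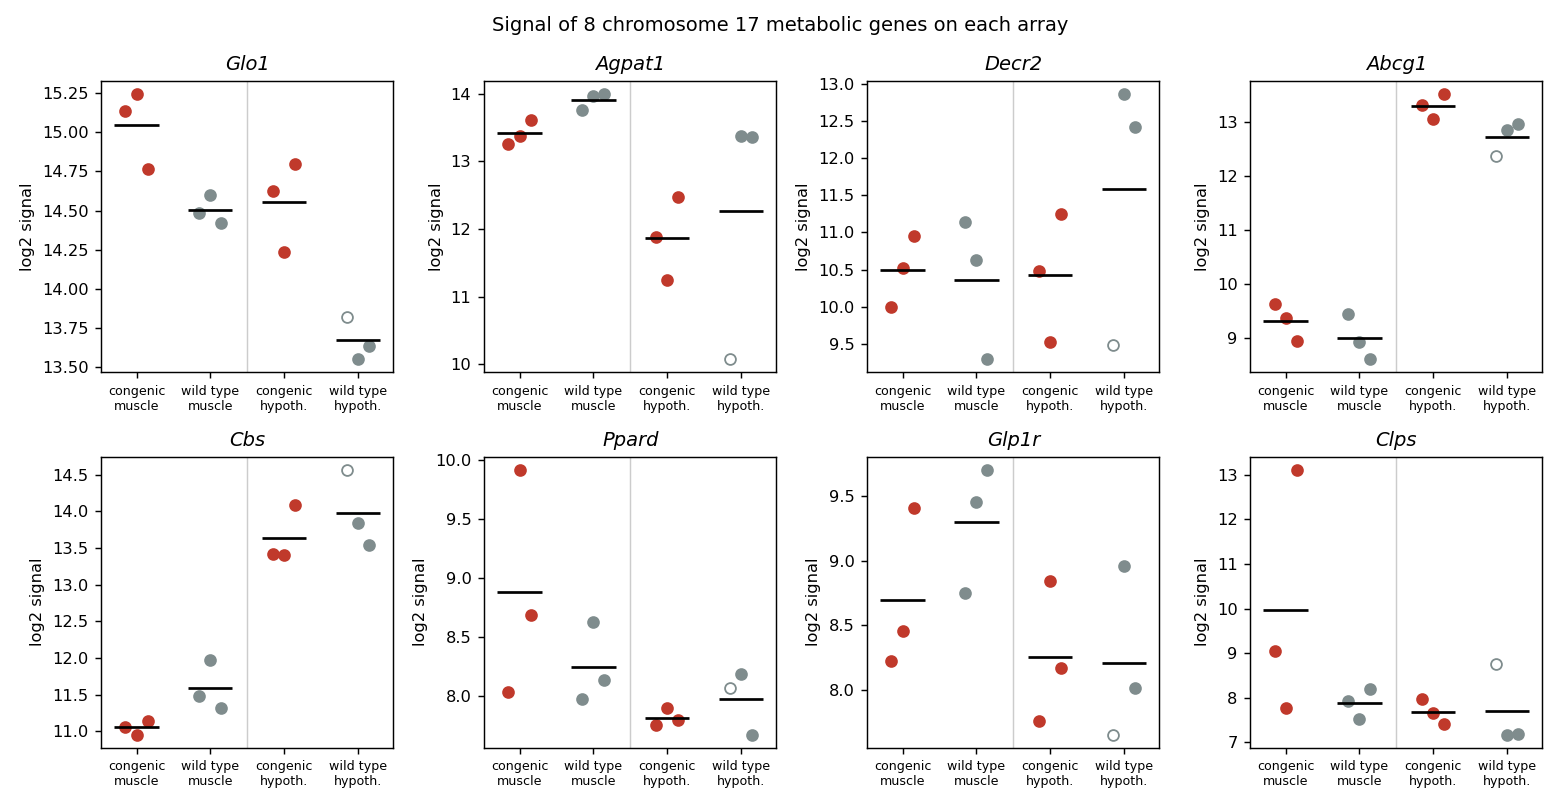
Log2 signal (y axis, a separate range for each gene) of the 8 measured genes on each array, congenic arrays in red left of wild type arrays in grey, muscle left of the vertical line and hypothalamus right of it. Points are arrays, horizontal bars are group means, and the open point is wild type hypothalamus array 1. Glo1 lay higher on all congenic than on all wild type arrays in both tissues, and in Agpat1 and Decr2 the open point lay more than 2 units below the other wild type hypothalamus arrays.

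Glo1 encodes glyoxalase I, the enzyme that joins methylglyoxal to glutathione as the opening step of its removal. In muscle its signal was 15.13, 15.24 and 14.76 on the congenic arrays, against 14.49, 14.60 and 14.42 on the wild type arrays. In hypothalamus it was 14.63, 14.23 and 14.80 on the congenic arrays, against 13.82, 13.55 and 13.64 on the wild type arrays. All congenic arrays lay above all wild type arrays in both tissues, a pattern met by 52 of 33012 probes (background 0.158%). Glo1 was bright on every array, at percentile 91.9 to 94.3 of the muscle arrays' probes and 90.3 to 94.9 of the hypothalamus arrays' probes.

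The muscle difference of Glo1 was 0.54 (SE 0.18, 95% interval 0.14 to 0.95), or 1.46-fold, with a limma adjusted p of 0.835. The hypothalamus difference was 0.88 (SE 0.55, 95% interval -0.38 to 2.14; limma adjusted p = 0.936), or 1.84-fold. Without wild type array 1 it was 0.96 (SE 0.29, 95% interval 0.28 to 1.63; limma adjusted p = 0.900). Array 1 thus changed the estimate of Glo1 little and its limma error more. The SD of Glo1 itself in wild type hypothalamus was 0.14 with array 1 and 0.06 without it. Limma's error also draws on the spread of all probes. The sign held in all 6 fits that left out 1 muscle array (0.45 to 0.69) and in all 6 that left out 1 hypothalamus array (0.76 to 1.04). Limma's test of the difference between the tissues gave -0.34 for muscle minus hypothalamus (95% interval -1.48 to 0.80, adjusted p = 0.925), and -0.41 without wild type hypothalamus array 1 (95% interval -1.17 to 0.35, adjusted p = 0.824). It was -0.20 without congenic muscle array 3 and -0.21 without congenic hypothalamus array 3.

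Of 14 other genes listed for methylglyoxal and glutathione handling 11 were measured. In muscle 7 were higher and 4 lower, 0 passed limma and 0 had an unadjusted p under 0.05, with a median difference of 0.06 beside 0.01 for all probes. In hypothalamus 8 were higher and 3 lower with a median of 0.96, and without wild type array 1 it was 5 higher and 6 lower with a median of -0.15; 0 passed in either fit and 0 had an unadjusted p under 0.05. The smallest p belonged to Ddah1, which degrades methylated arginines, in muscle (1.20, limma adjusted p = 0.835). In hypothalamus it belonged to Gss, the glutathione synthetase (-0.95, limma adjusted p = 0.936), and without array 1 to Aldh2, a mitochondrial aldehyde dehydrogenase (-0.64, limma adjusted p = 0.900).

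The reference promoters of Glo1, Agpat1 and Decr2 are shown because these 3 genes had unadjusted p-values under 0.05 in muscle or in hypothalamus without wild type array 1. They are RefSeq windows of the build GRCm38.p6, from 250 bases before to 50 bases after a start site, and they carry the letters of C57BL/6J. The CAST letters were not used here. Capitals mark GC boxes (GGGCGG, or CCGCCC on the other strand) and CCAAT boxes (CCAAT, or ATTGG on the other strand), read on both strands. Of the 32851 promoter windows of the same length 35.7% held the first motif and 37.4% held the other.
Glo1 promoter, chr17:30612610-30612909, strand -: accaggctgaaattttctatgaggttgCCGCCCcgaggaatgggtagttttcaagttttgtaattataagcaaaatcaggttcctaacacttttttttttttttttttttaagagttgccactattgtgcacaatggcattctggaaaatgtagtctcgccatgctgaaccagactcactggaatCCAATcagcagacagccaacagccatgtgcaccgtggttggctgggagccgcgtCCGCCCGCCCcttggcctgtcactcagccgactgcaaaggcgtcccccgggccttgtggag
Agpat1 promoter, chr17:34605611-34605910, strand +: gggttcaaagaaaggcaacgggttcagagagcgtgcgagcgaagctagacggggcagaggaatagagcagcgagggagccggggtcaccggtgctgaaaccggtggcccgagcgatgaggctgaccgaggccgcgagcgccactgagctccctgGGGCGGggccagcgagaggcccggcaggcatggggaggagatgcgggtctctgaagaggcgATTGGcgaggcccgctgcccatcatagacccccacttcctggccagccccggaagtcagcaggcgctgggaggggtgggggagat
Decr2 promoter, chr17:26090115-26090414, strand -: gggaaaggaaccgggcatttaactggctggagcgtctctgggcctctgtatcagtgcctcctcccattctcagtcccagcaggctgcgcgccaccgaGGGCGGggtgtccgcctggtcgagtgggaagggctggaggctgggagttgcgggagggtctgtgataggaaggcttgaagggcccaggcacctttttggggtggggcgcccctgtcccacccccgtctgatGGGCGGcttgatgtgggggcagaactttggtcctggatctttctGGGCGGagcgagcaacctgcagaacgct
Glo1 held 3 GC boxes, of which 2 overlap, and 1 CCAAT box in a window of 49.7% G and C. Agpat1, of which the upstream one of 2 windows is shown, held 1 of each at 68.0% G and C, and Decr2 held 3 GC boxes and 0 CCAAT boxes at 64.3%. The palindromic E-box CACGTG, a core of carbohydrate response elements, was in 7.15% of all windows and in 0 of these 3.

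Agpat1 encodes an acyltransferase of the endoplasmic reticulum that makes phosphatidic acid, the precursor of triglycerides and phospholipids. In muscle its signal was 13.26, 13.37 and 13.62 on the congenic arrays, against 13.76, 13.97 and 13.99 on the wild type arrays, so the strains did not overlap. The difference was -0.49 (SE 0.19, 95% interval -0.92 to -0.07; limma adjusted p = 0.835), or 1.41-fold lower in congenic muscle. It was -0.59 to -0.41 when 1 array was left out.

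In hypothalamus Agpat1 was 11.88, 11.25 and 12.48 on the congenic arrays, against 10.08, 13.37 and 13.36 on the wild type arrays. Wild type array 1 was the lowest of the 6 and the other 2 wild type arrays were the highest. Over all arrays the difference was -0.40 (95% interval -2.63 to 1.83; limma adjusted p = 0.948). Without wild type array 1 it was -1.50 (SE 0.38, 95% interval -2.38 to -0.62; limma adjusted p = 0.900), or 2.82-fold lower in congenic mice, and without wild type array 2 or 3 it was 0.15 and 0.14. Without congenic array 2 or 3 it was -0.09 and -0.71. With array 1 left out, Agpat1 was below the wild type arrays on all congenic arrays of both tissues, as were 180 of 33012 probes (background 0.545%). Between the tissues, limma gave a difference of -0.09 (adjusted p = 0.990), and without that array 1.01 (95% interval 0.07 to 1.94, adjusted p = 0.732). In these bulk tissues, fewer cells of a type and less RNA per cell cannot be told apart.

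Of 19 other genes of glycerolipid synthesis and lipolysis 15 were measured, and 0 passed limma or had an unadjusted p under 0.05 in either tissue. In muscle 9 were higher and 6 lower (median 0.18), and in hypothalamus 8 were higher and 7 lower (median 0.00), or 6 and 9 without wild type array 1 (median -0.15). Mgll, the monoglyceride lipase, had the smallest p in muscle (0.42, limma adjusted p = 0.835) and Lpin3, a phosphatidate phosphatase, in hypothalamus (-0.65, limma adjusted p = 0.936). Without array 1 it was Dgat1, which makes triglycerides from diglycerides (-0.47, limma adjusted p = 0.901).

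**Figure D2:**
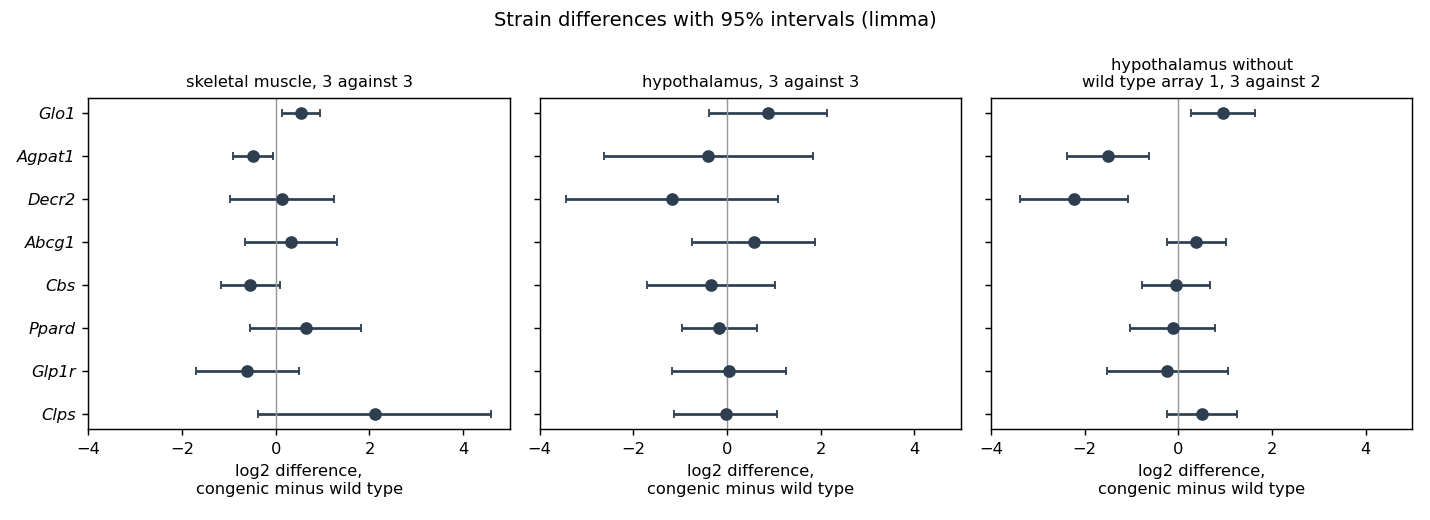
Log2 difference, congenic minus wild type (x axis), of the 8 measured genes (y axis), with 95% intervals from limma, in muscle, in hypothalamus and in hypothalamus without wild type array 1. Intervals that leave out 0 are those of Glo1 and Agpat1 in muscle and of Glo1, Agpat1 and Decr2 in the last panel, and no adjusted p was under 0.05.

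Decr2 encodes the peroxisomal 2,4-dienoyl-CoA reductase, an auxiliary enzyme for the oxidation of polyunsaturated fatty acids. In muscle it was 9.996, 10.52 and 10.95 on the congenic arrays, against 11.14, 10.63 and 9.30 on the wild type arrays, and the strains overlapped. The muscle difference was 0.13 (SE 0.50, 95% interval -0.98 to 1.24; limma adjusted p = 0.967), and leaving out array 3 of the congenic or of the wild type mice turned it to -0.10 or -0.40. Without congenic array 1, wild type array 1 or wild type array 2 it was 0.38, 0.52 and 0.27.

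In hypothalamus Decr2 was 10.48, 9.52 and 11.25 on the congenic arrays, against 9.49, 12.86 and 12.42 on the wild type arrays. As for Agpat1, wild type array 1 was the lowest and the other wild type arrays were the highest. The difference was -1.17 over all arrays (95% interval -3.43 to 1.09; limma adjusted p = 0.936). Without wild type array 1 it was -2.22 (SE 0.50, 95% interval -3.37 to -1.07; limma adjusted p = 0.900), or 4.65-fold lower in congenic hypothalamus, and without wild type array 2 or 3 it was -0.53 and -0.75. Without congenic array 2 it was -0.72. Muscle minus hypothalamus, the strain effects differed by 1.30 (limma adjusted p = 0.913), and without that array by 2.35 (95% interval 0.71 to 3.99; limma adjusted p = 0.686). Leaving out other single arrays lowered it to 0.66 (wild type hypothalamus 2), 0.77 (wild type muscle 3), 0.85 (congenic hypothalamus 2) or 0.88 (wild type hypothalamus 3).

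Of 21 other genes of peroxisomal beta-oxidation 18 were measured and 0 passed limma. In muscle 8 were higher and 10 lower (median -0.06), and 1 had an unadjusted p under 0.05. This was Abcd2, a peroxisomal transporter of very long chain fatty acids, at 8.25 ± 0.58 in congenic muscle and 9.52 ± 0.30 in wild type muscle (SD, n = 3 each; limma adjusted p = 0.835). In hypothalamus 12 were higher and 6 lower (median 0.23), with 0 unadjusted p-values under 0.05. Its smallest p was that of Pex5, the import receptor of peroxisomes (1.16, limma adjusted p = 0.936). Without wild type array 1 there were 10 and 8 (median 0.01), and 2 had an unadjusted p under 0.05. Both were higher: Pex5 by 1.57 and Hsd17b4, the multifunctional enzyme of the pathway, by 2.61 (limma adjusted p = 0.900 for both). On array 1 Hsd17b4 was 13.04, above all other hypothalamus arrays, and over all arrays its difference was 0.84.

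**Figure D3:**
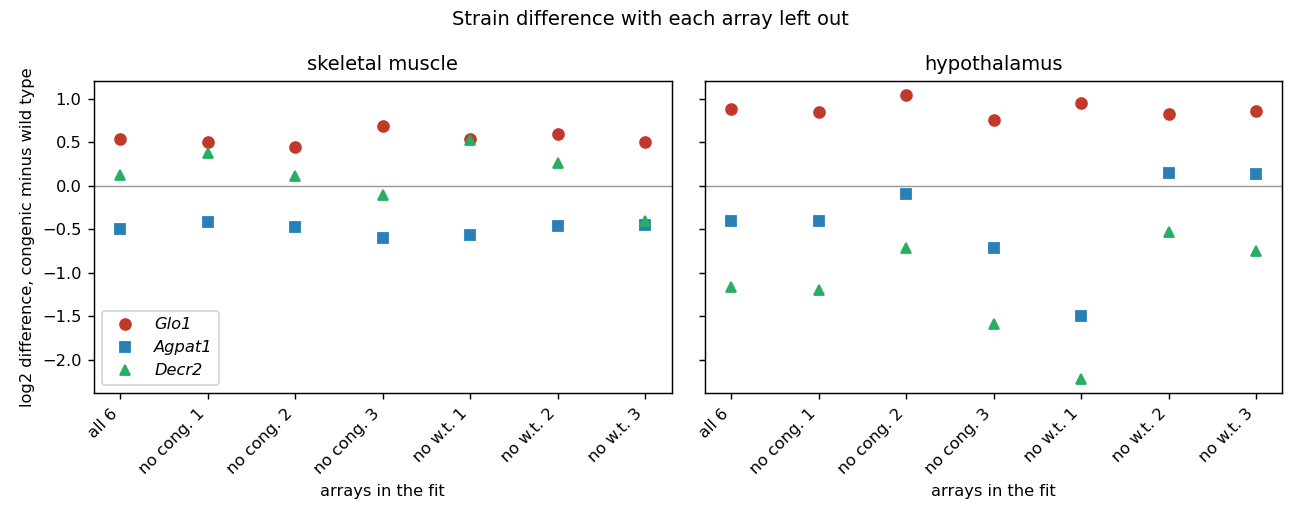
Log2 difference, congenic minus wild type (y axis), of Glo1, Agpat1 and Decr2 with all 6 arrays of a tissue and with each array left out in turn (x axis), in muscle and in hypothalamus. Glo1 stayed between 0.45 and 1.04 in both tissues, while Agpat1 in hypothalamus ranged from -1.50 to 0.15 and Decr2 from -2.22 to -0.53.

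Ppard encodes the nuclear receptor PPAR-delta, which binds fatty acids and turns on genes of their oxidation. In muscle its signal was 8.03, 9.92 and 8.69 on the congenic arrays, against 7.97, 8.62 and 8.13 on the wild type arrays. The strains overlapped, and congenic array 2 was the highest. The difference was 0.64 (SE 0.53, 95% interval -0.55 to 1.82; limma adjusted p = 0.847), and it was 0.12 without that array and 1.06 without congenic array 1. In hypothalamus Ppard was 7.75, 7.89 and 7.79 on the congenic arrays, against 8.07, 8.19 and 7.67 on the wild type arrays. The difference was -0.16 (95% interval -0.96 to 0.63; limma adjusted p = 0.943), and -0.12 without wild type array 1 (95% interval -1.02 to 0.79; limma adjusted p = 0.976). Without wild type array 2 or 3 it was -0.06 and -0.32. The probe was dim, at percentile 18.2 to 61.1 in muscle and 13.6 to 31.1 in hypothalamus, and no detection calls were available here.

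Of 23 other listed PPAR receptors, partners and targets 16 were measured, and 0 passed limma or had an unadjusted p under 0.05 in either tissue. In muscle 10 were higher and 6 lower (median 0.14). In hypothalamus 6 were higher and 10 lower (median -0.38), and 4 and 12 without wild type array 1 (median -0.23). Fabp3, a fatty acid binding protein of muscle, was 18.46 ± 0.50 in congenic muscle and 17.99 ± 0.39 in wild type muscle (SD, n = 3 each; limma adjusted p = 0.835). In hypothalamus the smallest p was that of Ucp3, a mitochondrial uncoupling protein (-1.32, limma adjusted p = 0.936). Without array 1 it was that of Ppargc1a, a coactivator of mitochondrial biogenesis (0.65, limma adjusted p = 0.900).

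Glp1r encodes the receptor of glucagon-like peptide 1, the gut and brainstem hormone that lowers food intake. In muscle it was 8.22, 8.46 and 9.41 on the congenic arrays, against 8.75, 9.45 and 9.70 on the wild type arrays. In hypothalamus it was 7.76, 8.84 and 8.17 on the congenic arrays, against 7.66, 8.96 and 8.02 on the wild type arrays. The strains overlapped in both tissues. The differences were -0.60 in muscle (SE 0.49, 95% interval -1.70 to 0.49; limma adjusted p = 0.845) and 0.05 in hypothalamus (SE 0.53, 95% interval -1.17 to 1.26; limma adjusted p = 0.987). Leaving out congenic array 1 moved the muscle value to -0.37, and leaving out congenic array 3 moved it to -0.96. In hypothalamus the value ran from -0.25 to 0.42 with 1 array left out, and without wild type array 1 it was -0.23 (95% interval -1.52 to 1.06; limma adjusted p = 0.965). The probe lay at percentile 27.3 to 58.5 of the muscle arrays and 13.2 to 49.7 of the hypothalamus arrays, so its signal was not brighter in hypothalamus, and there is no measure of whether it exceeds background.

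Of 12 other peptides, receptors and processing enzymes of the glucagon and secretin family 7 were measured and 0 passed limma. In muscle 4 were higher and 3 lower (median 0.10), and Glp2r, the receptor of glucagon-like peptide 2, had an unadjusted p under 0.05. It was 9.06 ± 0.43 in congenic muscle and 8.04 ± 0.25 in wild type muscle (SD, n = 3 each, limma adjusted p = 0.835). Both means lay below the median of all probes in muscle, 9.12, and no detection calls were available. In hypothalamus 3 were higher and 4 lower (median -0.12), and without wild type array 1 there were 2 and 5 (median -0.41), with 0 unadjusted p-values under 0.05 in both fits. Vipr2, a receptor of vasoactive intestinal peptide, had the smallest p over all arrays (-0.75, limma adjusted p = 0.936). Without array 1 it was Adcyap1r1, the receptor of the neuropeptide PACAP (0.77, limma adjusted p = 0.900).

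Cbs encodes cystathionine beta-synthase, which joins homocysteine and serine and is the entry to transsulfuration. In muscle it was 11.06, 10.96 and 11.14 on the congenic arrays, against 11.49, 11.97 and 11.32 on the wild type arrays. Each congenic array lay below each wild type array. The difference was -0.54 (SE 0.28, 95% interval -1.16 to 0.08; limma adjusted p = 0.835), or 1.46-fold lower, and -0.35 without wild type array 2. In hypothalamus it was 13.42, 13.41 and 14.08 on the congenic arrays, against 14.56, 13.84 and 13.55 on the wild type arrays, and the strains overlapped. That difference was -0.34 (95% interval -1.72 to 1.03; limma adjusted p = 0.939), and -0.05 without wild type array 1 (95% interval -0.78 to 0.68; limma adjusted p = 0.987), on which Cbs was highest. Leaving out congenic array 2 gave -0.23, congenic array 3 gave -0.57 and wild type array 3 gave -0.56.

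Of 19 other genes of the methionine cycle and sulfur amino acid metabolism 15 were measured and 0 passed limma. In muscle 7 were higher and 8 lower (median -0.01) and 0 had an unadjusted p under 0.05. The smallest p was that of Mat1a, the liver form of S-adenosylmethionine synthetase (-1.03, limma adjusted p = 0.835). In hypothalamus 7 were higher and 8 lower (median -0.07) with 0 unadjusted p-values under 0.05, and without wild type array 1 there were 6 and 9 (median -0.21) with 1. This was Shmt2, the mitochondrial serine hydroxymethyltransferase, at 10.30 ± 0.64 in congenic hypothalamus (SD, n = 3) and 11.59 ± 0.06 in wild type hypothalamus (SD, n = 2; limma adjusted p = 0.900). Over all arrays Shmt2 differed by -1.0, again with the smallest p of the list (limma adjusted p = 0.936).

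Abcg1 encodes a transporter that moves cholesterol out of cells to high-density lipoprotein and is abundant in macrophages and brain. In hypothalamus it was 13.30, 13.05 and 13.50 on the congenic arrays, against 12.35, 12.85 and 12.95 on the wild type arrays, so the strains did not overlap with or without wild type array 1. The difference was 0.57 (SE 0.57, 95% interval -0.74 to 1.88; limma adjusted p = 0.936), and 0.39 without that array (SE 0.27, 95% interval -0.25 to 1.02; limma adjusted p = 0.900). In muscle Abcg1 was 9.64, 9.37 and 8.95 on the congenic arrays, against 9.44, 8.92 and 8.61 on the wild type arrays, and the strains overlapped. The muscle difference was 0.33 (95% interval -0.65 to 1.31; limma adjusted p = 0.894), with 0.14 without wild type array 3, 0.17 without congenic array 1 and 0.51 and 0.55 without congenic array 3 or wild type array 1.

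Of 17 other genes of cholesterol efflux and of the liver X receptors 12 were measured and 0 passed limma. In muscle 8 were higher and 4 lower (median 0.15), and 1 had an unadjusted p under 0.05. This was Apoe, an apolipoprotein of particles that take up exported cholesterol (limma adjusted p = 0.835). It was 17.10, 17.17 and 16.94 on the congenic arrays and 16.66, 16.32 and 16.20 on the wild type arrays. The strains did not overlap for Apoe in muscle. The median of 6 macrophage markers was 13.42 to 13.86 in congenic muscle and 12.79 to 13.24 in wild type muscle, without overlap. Their mean overlapped, at 12.75 to 13.26 in congenic muscle and 12.30 to 12.83 in wild type muscle. The part of these markers in the Apoe and Abcg1 values was not tested. In hypothalamus 5 were higher and 7 lower (median -0.09), and without wild type array 1 there were 7 and 5 (median 0.07), with 0 unadjusted p-values under 0.05 in both fits. The smallest p-values were those of the sterol transporter Abcg5 (-1.18, limma adjusted p = 0.936) and, without array 1, of the transporter Abcg4 (-0.98, limma adjusted p = 0.900).

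Clps encodes colipase, the cofactor of pancreatic lipase in the gut, which is made by acinar cells of the exocrine pancreas. In muscle it was 9.05, 7.77 and 13.11 on the congenic arrays, against 7.91, 7.51 and 8.18 on the wild type arrays. Congenic array 3 alone was bright, at percentile 86.0 of its probes, and the strains overlapped. The difference was 2.11 (SE 1.11, 95% interval -0.38 to 4.60; limma adjusted p = 0.835), and 0.54 without that array. Without congenic array 2 it was 3.22.

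Some other genes of the exocrine pancreas were bright on the same array. Of 17 listed besides Clps 14 were measured, and 11 of them had their highest muscle value on congenic array 3. Of the 14 genes, 5 were above 12 there. Cpb1, Sycn and Pla2g1b were highest on other arrays, and on congenic array 3 they were 8.23, 7.73 and 8.54. The trypsin gene Prss2 was 8.87, 7.98 and 14.78 on the congenic arrays, against 10.40, 9.02 and 9.18 on the wild type arrays. The elastase gene Cela3b was 8.92, 8.95 and 14.39 on the congenic arrays, against 10.22, 9.21 and 7.59 on the wild type arrays. Both were highest on congenic array 3 by more than 4 log2 units, the widest margins of the 14 genes. The median of the 14 genes was 8.74, 8.58 and 11.31 on the congenic arrays and 8.85, 8.37 and 8.67 on the wild type arrays, and the log2 of their summed linear signals was 12.88 to 16.85 in congenic muscle and 12.56 to 13.66 in wild type muscle. In all, 13 of the 14 were higher and 1 lower in congenic muscle, with a median of 0.88, and without congenic array 3 it was 5 higher with a median of -0.12. By limma 0 passed, at either the adjusted or the unadjusted threshold, and the lipase-related Pnliprp1 had the smallest p (1.68, adjusted p = 0.835). The part of these genes in the Clps value was not tested.

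In hypothalamus Clps was 7.96, 7.65 and 7.41 on the congenic arrays, against 8.76, 7.17 and 7.17 on the wild type arrays. The difference was -0.03 (95% interval -1.13 to 1.07; limma adjusted p = 0.990), and 0.50 without wild type array 1 (95% interval -0.24 to 1.24; limma adjusted p = 0.900), when the strains did not overlap. The probe was then among the dimmest, at percentile 7.01 to 23.2 on the congenic arrays and 3.23 and 3.27 on the wild type arrays, so neither the difference nor the lack of overlap can be told from background, and the same holds for Clps in the count of 5 of 8 members. The exocrine list had 4 genes higher and 10 lower in hypothalamus (median -0.17) and, without that array, 8 and 6 (median 0.11). By limma 0 passed in both fits, and with that array left out Cela3b had an unadjusted p under 0.05 (1.04, adjusted p = 0.900). Over all arrays the smallest p was that of the carboxypeptidase gene Cpa1 (0.87, limma adjusted p = 0.936).

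**Figure D4:**
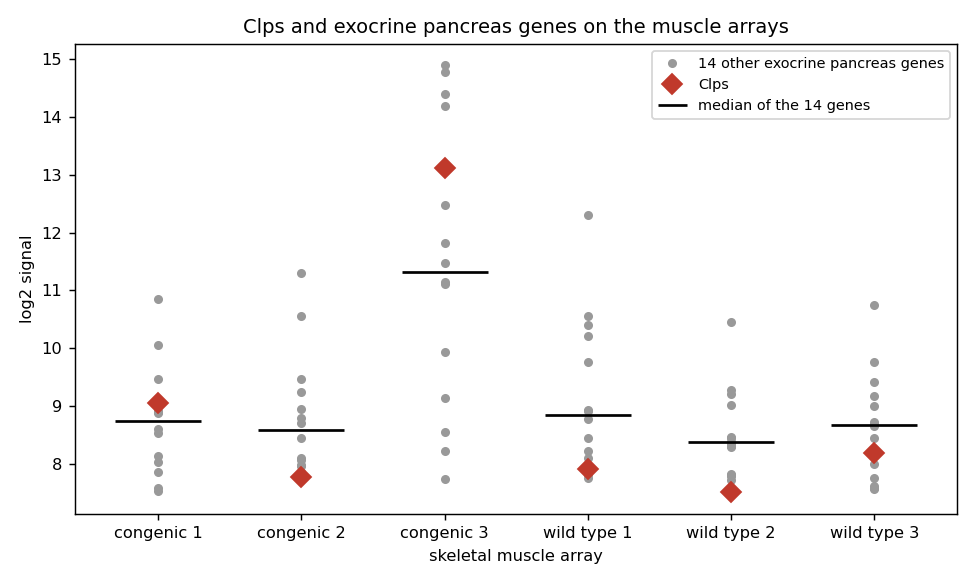
Log2 signal (y axis) of Clps (red diamonds) and 14 other genes of the exocrine pancreas (grey points) on the 6 muscle arrays (x axis), with the median of the 14 genes as a black bar. Congenic array 3 has a median of 11.31 and Clps at 13.11, and the medians of the other arrays lie between 8.37 and 8.85.

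Itpr3 had no listed probe, and 17 of 21 other genes of inositol trisphosphate signalling and taste transduction were measured, a pathway that uses this receptor in sweet taste cells. In muscle 6 were higher and 11 lower (median -0.07), and in hypothalamus 8 were higher and 9 lower both with all arrays (median -0.07) and without wild type array 1 (median -0.10). By limma 0 passed in these fits and 0 had an unadjusted p under 0.05. The smallest p-values were those of the taste cell channel Trpm5 in muscle (-0.76, limma adjusted p = 0.835) and of the sweet receptor subunit Tas1r2 in hypothalamus (1.10, limma adjusted p = 0.936). Without array 1 the smallest was that of the umami receptor subunit Tas1r1 (0.95, limma adjusted p = 0.900). The median of 3 measured taste and tuft cell markers was 8.19 to 9.44 in muscle and 7.84 to 8.74 in hypothalamus. The medians of all probes were 9.12 and 8.98, and no detection calls were available for these genes.

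Set side by side, the tissues gave different levels for some members, but they had been normalised apart and no test was made between them. Abcg1 averaged percentile 52.8 of the array's probes in congenic muscle and 46.9 in wild type muscle, and 88.8 in congenic hypothalamus and 85.3 in wild type hypothalamus. Cbs was likewise higher in hypothalamus, at percentile 89.5 to 94.2, than in muscle, at 71.4 to 79.2. For Agpat1 the muscle arrays lay at percentile 86.8 to 90.2, above the congenic hypothalamus arrays at 74.4 to 83.8, while wild type hypothalamus arrays 2 and 3 lay at 89.3 and 89.2. For Glo1, Decr2, Ppard, Glp1r and Clps the percentiles of the tissues overlapped.

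The nearest 2 measured genes on each side of the 9 genes gave 30 neighbours that are no members. By limma 0 of them passed in any fit. In muscle 1 had an unadjusted p under 0.05, and their differences ran from -1.42 to 0.75 with a median of 0.09. The lowest was that of Ip6k3, a muscle inositol hexakisphosphate kinase and the second measured gene after Itpr3 (SE 0.40, limma adjusted p = 0.835). In hypothalamus 0 had an unadjusted p under 0.05 and the median was 0.02. Without wild type array 1 there were 2, the zinc finger gene Zfp523, the second measured gene before Ppard (-1.10), and Pigq, an enzyme of GPI anchor synthesis and the second before Decr2 (-0.79, limma adjusted p = 0.900 for both), and the median was -0.15. The neighbours of Glo1 that are no members differed in muscle by -0.26 (Cmtr1), -0.16 (Zfand3) and 0.45 (Dnah8). Those of Agpat1 differed there by -0.09 (Ager), -0.05 (Rnf5), 0.75 (Egfl8) and 0.01 (Ppt2). None of these 7 had an unadjusted p under 0.05. In hypothalamus without wild type array 1, where 11 of the 30 neighbours were higher, the neighbours of Decr2 other than Pigq were lower too. They differed by -0.19 (Capn15), -1.15 (Pgap6) and -0.79 (Mrpl28), with no unadjusted limma p under 0.05. Over all arrays the neighbours of Decr2 differed by 0.28 (Pigq), -0.30 (Capn15), -0.53 (Pgap6) and -0.16 (Mrpl28). Without array 1 those of Glo1 differed by -0.87 (Cmtr1), 0.34 (Zfand3) and 0.40 (Dnah8). Those of Agpat1 then differed by -0.25 (Ager), -0.21 (Rnf5), 0.81 (Egfl8) and -0.75 (Ppt2).

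**Figure D5:**
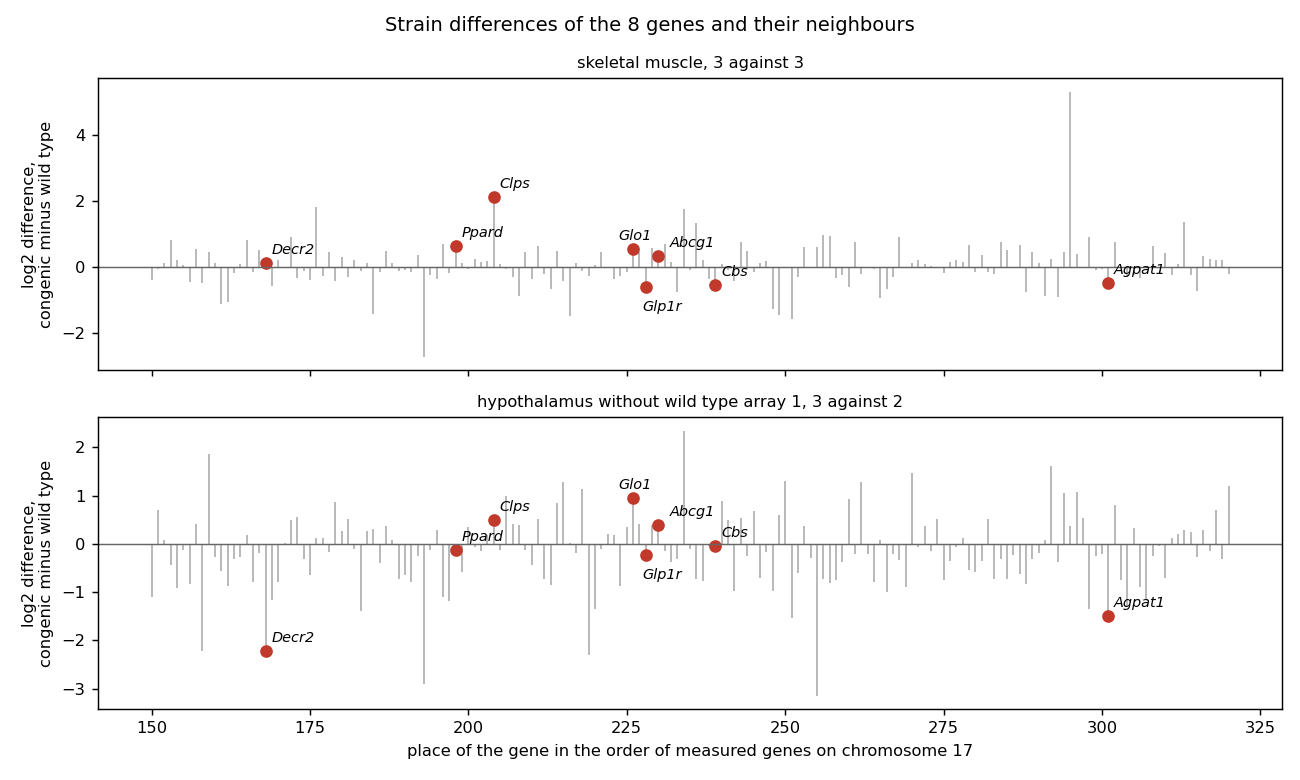
Log2 difference, congenic minus wild type (y axis), of measured chromosome 17 genes in muscle and in hypothalamus without wild type array 1. Genes follow their start positions in the gene table (x axis, places 150 to 320 of 656). Grey lines are single genes and red points are the 8 genes described here, whose muscle differences run from -0.60 (Glp1r) to 2.11 (Clps).

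Over the 11 arrays other than wild type hypothalamus array 1, and after subtraction of each tissue's mean, the genes with the most similar profile were found for each member among all named genes. Pearson's r was 0.92 and 0.90 for Tdrd12 and Scnn1a with Glo1, 0.97 for both Eef1a2 and Kcnj12 with Agpat1, and 0.96 and 0.94 for Catsper3 and Stab1 with Decr2. It was 0.96 and 0.95 for Zscan5b and Eefsec with Ppard, 0.88 and 0.87 for Cdc42ep3 and Olfr1094 with Glp1r, and 0.94 and 0.91 for Btbd7 and Vmn1r52 with Cbs. For Abcg1 the nearest were Stk32a and Nod2 (0.92 and 0.89), and for Clps Cbln1 and Clcf1 (0.97 and 0.96). Of these 16 genes only Cdc42ep3 lies on chromosome 17. These r values are the highest among all named genes over few arrays that share strain and tissue, and serve as a description. Clps was 13.11 on congenic muscle array 3 and 7.51 to 9.05 on the other muscle arrays. Ppard was 9.92 on congenic muscle array 2 and 7.97 to 8.69 on the others. The weight of these single arrays in the r values was not tested.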

How the data were processed

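Frozen tissue RNA was isolated by TRI-Reagent, column-purified and transcribed to DIG-labelled cRNA, per the labels' protocols. The 12 deposited columns were taken as log2 intensities normalised by the authors. Medians were 9.12 (muscle arrays) and 8.98 (hypothalamus arrays), the same for the 6 arrays of a tissue. For software, background correction and log base: not given in the sources used here. The table of 33012 probes had 0 missing values and 0 identical pairs of arrays. The number of arrays limits the precision.

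Of the probes 14411 carried 1 gene symbol in the platform annotation, 247 several and 18354 none, and 14402 of the first kind matched a GRCm38.p6 gene table, used for names and gene order. Groups came from the titles. Linear models (R 4.3.3, limma 3.58.1; moderated variances with an intensity trend) were fitted per tissue, and over all arrays for the difference between tissues. The brightest probe stood for a gene of a list. Fits were tested on simulated data. Members, lists and tests were chosen with earlier results of these data known. Named are every member, the list gene with the smallest p per tissue, genes with an unadjusted p under 0.05, the nearest 2 neighbours on each side and the 2 most similar profiles. Sensitivity to each array, replicate block, trend, array weights, dim probes (20th percentile), floor, normalisation and joint fit was computed. Correlations between strains of deviations from the group means were 0.01 to 0.07 for equal replicate numbers in muscle and -0.13 to 0.14 in hypothalamus. For unequal numbers they were -0.08 to 0.02 in muscle and -0.16 to 0.14 in hypothalamus. So few values cannot settle whether equal numbers pair the arrays, and the main fits used no pairing.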

Additional observations from a re-analysis of the deposited data

How the results depend on the processing

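No member passed limma's threshold over all probes in muscle, in hypothalamus or in the difference between the tissues under any alternative, with adjusted p-values from 0.295 to 1. Of 366 recomputed member differences 346 kept their sign and 20 changed it, 13 of them with 1 array left out. With the replicate number as a block 0 members passed in each comparison and no difference moved, since the design is balanced.

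With 1 array left out, the ranges of differences whose sign changed were -0.40 to 0.52 for Decr2 in muscle, -0.30 to 0.50 for Clps, -0.25 to 0.42 for Glp1r and -1.50 to 0.15 for Agpat1 in hypothalamus, and -0.49 to 0.0245 for Cbs and -0.64 to 1.01 for Agpat1 between the tissues. Between the tissues, differences that kept their sign but moved over 1.5 times ran from 0.66 to 2.35 (Decr2), 0.28 to 1.22 (Ppard), 0.57 to 3.24 (Clps), -0.50 to -0.20 (Glo1), -1.03 to -0.36 (Glp1r) and -0.43 to -0.01 (Abcg1). With array weights Clps gave 0.56 and Glp1r -0.46 in hypothalamus, and Abcg1 0.0182 and Agpat1 0.99 between the tissues. Without both arrays numbered 1 Clps gave 0.36 and Cbs 0.0550 in hypothalamus, and with quantile normalisation over 12 arrays Agpat1 gave 0.0323 between the tissues. The median of the exocrine pancreas genes in muscle was -0.12 without congenic array 3, an alternative chosen after seeing the data.

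The count of probes called in muscle, 6 in the main fit, was 2 to 8 with 1 array left out, 9 with array weights, 2 without the trend or with floored values and 1 in the fit of all 12 arrays, and between the tissues it was 1 with array weights against 0. The count of members with an unadjusted p under 0.05 (a count added after seeing the data) also varied with 1 array left out. It was 0 to 2 in muscle (3.47% to 7.57% of all probes in those fits) and 0 to 3 in hypothalamus (1.22% to 5.33%). Between the tissues it was 0 to 2 (2.64% to 6.74%). In muscle it was 3 with array weights (6.0% of all probes in that fit) or the replicate block (6.11%), and 0 without the trend (5.24%) or in the fit of all 12 arrays (2.0%). In hypothalamus it was 3 with array weights (10.1%) or without both arrays numbered 1 (5.4%), and 1 in the fit of all 12 arrays (5.38%). Between the tissues it was 2 with array weights (9.42%). The cause of these changes was not tested. Dim probes, among them Ppard and Clps in hypothalamus, were left out under the filter and gave no value there.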
